A study of Drosophila melanogaster with 12 samples.

Results

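The genes described here are 10 genes of follicle cell fate and border cell migration in the *Drosophila* ovary, namely *N*, *Dl*, *ct*, *peb*, *ttk*, *slbo*, *upd1*, *Stat92E*, *eya* and *Fas3*. They were chosen by name, and all 10 were found among the 14303 genes of the RNA sequencing table. Ovary RNA of 4-day-old females was sequenced in 2 genotypes. In *D1* mutant females, the *D1* Kyoto allele lay over the *D1* Bsc666 deficiency, which removes a stretch of the third chromosome around *D1* and not *D1* alone. In control females, the same *D1* Kyoto allele lay over the balancer chromosome TM6C, so the controls were heterozygous for *D1* and carried a balancer that the mutants lacked. Both genotypes were also mutant for *chk2*, whose product is a checkpoint kinase that arrests germ cells after DNA damage, so neither is a wild type. The study's methods give about 5 pairs of ovaries for each sample, where the labels give about 5 ovaries a genotype. From each genotype, 3 rRNA-depleted libraries were sequenced with paired 150 bp reads. The small RNA libraries, 3 labelled *D1* mutant and 3 labelled control, were not analysed here.

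*D1* encodes an AT-hook protein that binds satellite DNA repeats, and the study used the mutant to ask whether its loss alters transposon and gene expression. The table used here gives, for each gene, the authors' mean of normalized counts over all 6 libraries. This mean pools *D1* mutant and control ovaries. It therefore places the 10 genes on a common scale of abundance, but carries no difference between the genotypes, no spread between libraries and no depth of any library. No test was possible on it, and the values below are descriptions. The targeted gene itself, *D1*, had a pooled mean of 6038, which checks none of the labels.

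The follicular epithelium is the somatic cell layer that encloses each germline cyst. Germ cells present the ligand Delta to the receptor Notch on follicle cells, and Notch signalling then ends their mitotic divisions and starts endocycles. At the ends of each egg chamber, a pair of polar cells secretes the JAK/STAT ligand Unpaired. Where this signal is strongest at the anterior, neighbouring follicle cells take the border cell fate, switch on the transcription factor Slbo, leave the epithelium and migrate between the nurse cells to the oocyte. Border and polar cells are a small minority of the cells of an egg chamber. In RNA from whole ovaries, a gene transcribed in few cells and a gene with little RNA in each of many cells cannot be told apart.

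Tissue markers were compared with the labels first. The labels give ovary as the tissue and germline cell as the cell type, while the series' design text names testes. All 8 germline genes of the ovary list lay above the median of all genes per length, from *grk* at 486 to *nos* at 15548 mean normalized counts per kb of exon. The 6 testis germline genes found had a summed mean of 92.1, and each was below the gene median. Their levels ran from 1.55 per kb for *ProtA*, a sperm protamine, to 26.0 per kb for *topi*. Somatic genes were found too, over a wide range of levels. The follicle cell list ran from 9.36 per kb for *cas* to 126981 per kb for the chorion gene *Cp36*. Of its 10 genes found, 6 were above the gene median. The ovarian sheath muscle list ran from 18.4 per kb for *sls* to 1341 per kb for *Mlc2*, a myosin light chain. Of its 7 genes, 3 were above the gene median. The RNA thus held germline, follicle cell and muscle transcripts, not those of germline cells alone. *tj*, a Maf factor of somatic gonad cells, had 185 per kb, which was 0.0847 times the level of *vas*, the germline RNA helicase Vasa, and 0.154 times on the longest coding sequence. *Mhc*, muscle myosin heavy chain, had 439 per kb, and *vas* stood 4.98 times above it, or 1.26 times without division by length.

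The 10 genes spanned a wide range of abundance. To compare them, the mean was divided by the length in kb of all annotated exons of the gene joined together, on the release 6 assembly. *Stat92E* was highest at 1402 mean normalized counts per kb, followed by *N* at 832, *ttk* at 678, *eya* at 566, *Fas3* at 416, *Dl* at 410 and *peb* at 271. Far below them lay *ct* at 46.8, *upd1* at 19.5 and *slbo* at 15.7 per kb. The largest step between neighbours in this order was from *peb* to *ct*, a ratio of 5.79. The 7 upper genes were all above the median of all genes, 216 per kb, and the 3 lower genes were all below it. *Stat92E* alone was at or above percentile 75 of genes, which lay at 1289 per kb. The other upper genes lay at percentiles 51.7 (*peb*) to 66.6 (*N*), and *ct* and *upd1* lay at percentiles 38.6 and 31.6. As a sum, the members' means made 30584 of 45622313 normalized counts over genes, or 0.0670%.

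**Figure D1:**
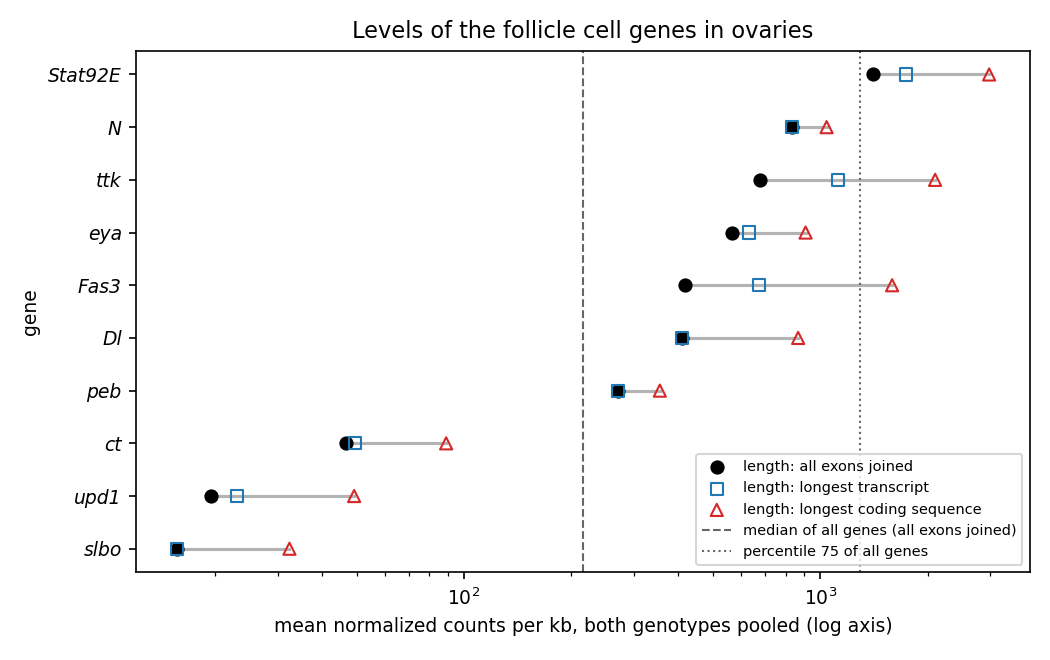
Mean normalized counts per kb (log axis) of the 10 genes, pooled over *D1* mutant and control ovaries, with the length taken as all exons joined (circles), the longest transcript (squares) or the longest coding sequence (triangles). The dashed line marks the median of all genes, 216 per kb, and the dotted line marks percentile 75, 1289 per kb, both for all exons joined. With all exons joined, *ct*, *upd1* and *slbo* lie between 15.7 and 46.8 per kb, apart from the other 7 genes at 271 to 1402 per kb.

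Several neighbours in this order were close. *Fas3* over *Dl* was 1.01, *ttk* over *eya* was 1.20, *N* over *ttk* was 1.23 and *upd1* over *slbo* was 1.25. With no spread between libraries, whether these pairs differ is not known. The choice of length alone turned *N* over *ttk* round, to 0.742 on the longest transcript and 0.496 on the longest coding sequence, and kept the direction of the other 3 pairs. *eya* over *Fas3*, at 1.36 with joined exons, turned as well, to 0.934 and 0.572 on the same lengths. *Stat92E* stayed at the top and *peb*, *ct*, *upd1* and *slbo* stayed as the lowest 4, in that order, with each of the 3 lengths.

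Among ligands and receptors, the Notch pair came first. *N* (FBgn0004647) lies on the plus strand of the X chromosome at 3134870 to 3172221 and encodes the transmembrane receptor that is cleaved on ligand binding to free its intracellular domain. Its mean was 8447, the highest of the 10 genes before division by length, on 10150 bp of exon. *Dl* (FBgn0000463) lies on the minus strand of 3R at 19302731 to 19326217 and encodes the ligand Delta. Its mean was 2166 on 5278 bp of exon. Per kb, *Dl* was 0.493 times *N*. The ratio was 0.832 on the longest coding sequence and 0.256 without division by length, so the ligand was below the receptor on each scale while the size of the gap moved with the scale. The other Notch ligand gene, *Ser*, had a mean of 3.21 and 0.550 per kb, the lowest level in the Notch list. *Dl* was 746 times *Ser* and *N* was 1513 times *Ser* per kb. Over the other lengths and without length, *Dl* over *Ser* ran from 675 to 1140 and *N* over *Ser* from 1371 to 2633. These ranges reflect the choice of length only. With so low a mean for *Ser* and no spread between libraries, the size of the ratios is uncertain.

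The sequence before the start of *N* is shown because it was the only member promoter with a match to a motif of a factor in the set. The window ran from 250 bases before to 50 bases after the outermost annotated start of each gene, and was read from the RefSeq release 6 genome. It was searched on both strands for the Stat92E motif TTCNNNGAA, the Su(H) motif GTGGGAA and the C/EBP motif TTGCGCAA, of which the Stat92E and C/EBP motifs read the same on both strands. *N* held the Stat92E motif at 2 places, which do not overlap, with the matched bases in capitals and up to 10 flanking bases in lower case.
*N*, chrX:3134620-3134642, plus strand, match starting at base -246 from the gene start: taatTTCTACGAAtcttacattg
*N*, chrX:3134695-3134723, plus strand, match starting at base -165 from the gene start: taaagcgccaTTCGGCGAAatggggaaac
The same motif stood in 8.99% of 14190 gene promoters of this length, and in 1 of the 10 member promoters. The Su(H) motif stood in 3.63% and the C/EBP motif in 0.423% of all promoters, and in 0 of the 10 members. These matches are letters in a window and were not tied to any binding. The member promoters had a median A+T content of 49% against 62% for all gene promoters, and ran from 37.7% for *upd1* to 63.3% for *Dl*.

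The other parts of the Notch pathway ranged from near absence to levels above those of the receptor. Of 24 further genes of the pathway, 15 were above the gene median and 9 were above percentile 75, with a list median of 672 per kb. The highest was *O-fut1*, the O-fucosyltransferase that modifies Notch, at 3405 per kb. Presenilin, the catalytic subunit of γ-secretase that makes the last cut of Notch, had 2364 per kb for *Psn*. *kuz*, the ADAM protease of the cut before it, had 707 per kb, and *N* was 1.18 times *kuz* with joined exons but 0.771 times on the longest coding sequence. *Su(H)*, the DNA-binding partner of the Notch intracellular domain, had 668 per kb. This was 0.803 times *N* with joined exons but 1.06 times on the longest coding sequence. Its coactivator *mam* had 64.0 per kb. *fng*, the glycosyltransferase that changes which ligand Notch prefers, had 181 per kb, below *N* by a ratio of 4.61, or 23.9 without division by length. The enhancer of split genes in the list, classic Notch targets, were spread from 442 per kb for *E(spl)m3-HLH* to 4.42 per kb for *E(spl)m8-HLH*.

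The JAK/STAT ligand was far scarcer than its transducer. *upd1* (FBgn0004956), on the minus strand of the X chromosome at 18305354 to 18309291, encodes the secreted ligand that polar cells make. Its mean was 61.0 on 3125 bp of exon, or 0.0904 times the gene median per kb. *Stat92E* (FBgn0016917), on the minus strand of 3R at 20535323 to 20552311, encodes the only STAT transcription factor of the fly. Its mean was 7306 on 5210 bp of exon, or 6.50 times the gene median per kb. *Stat92E* over *upd1* was 71.9 per kb, and 119.8 without division by length. The receptor gene *dome* had 627 per kb and the Janus kinase gene *hop* had 379 per kb, so *Stat92E* was 2.24 times *dome* and 3.70 times *hop*. *dome* was in turn 32.1 times *upd1*. On the longest coding sequence, *Stat92E* over *dome* was 3.74 and *dome* over *upd1* was 16.2, and without division by length *dome* over *upd1* was 50.2.

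The 3 Unpaired genes differed among themselves. *upd1* was 21.1 times *upd2*, which had a mean of 1.83 and 0.924 per kb, the lowest level in the JAK/STAT list. On the longest coding sequence this ratio was 32.8, and with so low a mean for *upd2* its size is uncertain. *upd3* had a mean of 31.0 and 13.9 per kb, so that *upd1* over *upd3* was 1.40. The 3 genes lie in one stretch of the X chromosome that holds the starts of 4 protein-coding genes, themselves included. *upd3* lies 20.8 kb and *upd2* lies 62.1 kb from *upd1*. Of the 12 further genes of the pathway, 9 were above the gene median and 2 were above percentile 75. The highest was *Su(var)2-10*, the PIAS homolog that restrains STAT, at 1684 per kb. *Socs36E*, a feedback inhibitor induced by STAT, had 345 per kb, and *Stat92E* was 4.07 times as high.

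**Figure D2:**
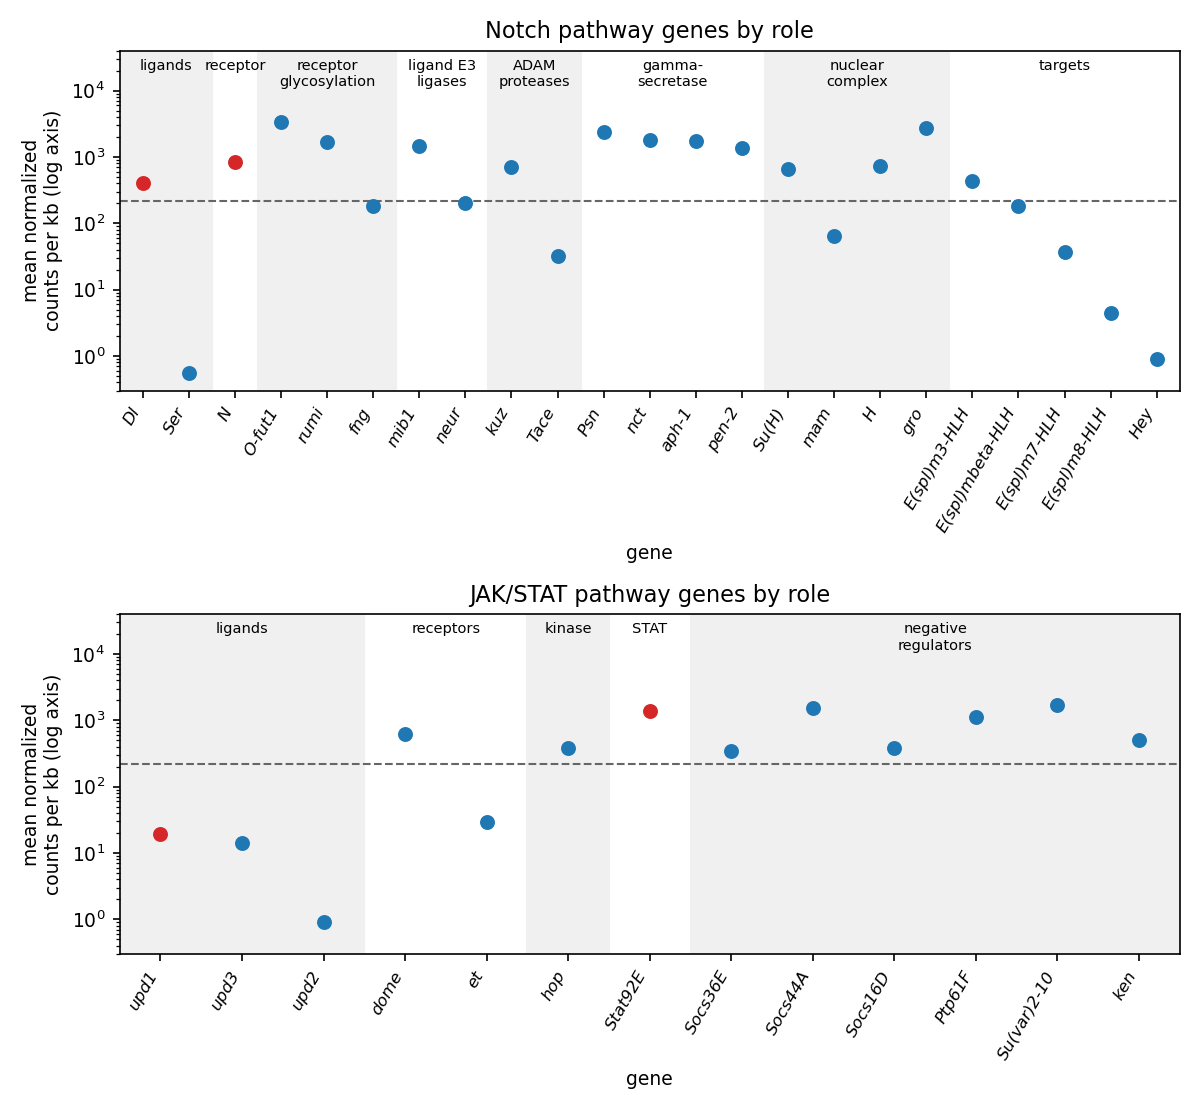
Mean normalized counts per kb (log axis) of Notch pathway genes (upper panel) and JAK/STAT pathway genes (lower panel), grouped by role and pooled over *D1* mutant and control ovaries. Members are in red, other pathway genes in blue, and the dashed line is the median of all genes, 216 per kb. *Ser* at 0.550 and *upd2* at 0.924 per kb lie far below *Dl* and *upd1*, while *Stat92E* stands at 1402 against 19.5 per kb for *upd1*.

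The genes of the switch from mitosis to endocycle form the next group. *ct* (FBgn0004198), on the plus strand of the X chromosome at 7608428 to 7678859, encodes the homeodomain protein Cut, which is made in dividing follicle cells and is turned off by Notch. *peb* (FBgn0003053), on the plus strand of the X chromosome at 4617564 to 4627206, encodes the zinc finger protein Hindsight, which Notch turns on and which represses *ct*. *peb* had a mean of 2015 on 7446 bp of exon, and *ct* had a mean of 582 on 12443 bp. Per kb, *peb* was 5.79 times *ct*, and 3.98 times on the longest coding sequence. Relative to the receptor, *N* was 3.07 times *peb* and 17.8 times *ct*, with 11.7 times *ct* on the longest coding sequence.

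*ttk* (FBgn0003870), on the plus strand of 3R at 31713867 to 31735392, encodes the BTB zinc finger repressors Tramtrack. Its mean was 5121 on 7557 bp of exon, the third highest of the 10 genes. *ttk* was 3.67 times *tj* per kb with joined exons, 6.07 times on the longest transcript and 7.93 times without division by length. Its 8 annotated transcripts encode 2 proteins that differ in their zinc fingers, and a count per gene merges them. Its level moved with the length used, at 678 per kb over all exons, 1122 over the longest transcript and 2100 over the longest coding sequence. Its outermost start held no match to the 3 motifs. When every annotated start was searched, a choice made after seeing the first search, *ttk* held the Su(H) motif before an internal start, and the sequence is shown because it was the only Su(H) match at any of the 21 distinct starts of the members.
*ttk*, chr3R:31726253-31726279, plus strand, match starting at base -139 from the transcript start at 31726402: tcgtgggcgaGTGGGAAtgattttcaa
Over all starts, the Su(H) motif stood in 4.89% of 14190 genes and the Stat92E motif in 11.3%, with 1 member each. The C/EBP motif stood in 0.571% of genes and in 0 members.

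The genes listed for this switch were mostly high, though their levels are those of whole ovaries and not of follicle cells at the switch. Of 11 genes in the list, 9 were above the gene median and 6 were above percentile 75. The highest was *CycB*, a mitotic cyclin whose RNA the germline also makes, at 41160 per kb. *stg*, the Cdc25 phosphatase that Notch signalling shuts off in follicle cells, had 1368 per kb, or 0.976 times *Stat92E*. *fzr*, the activator of cyclin destruction that Notch turns on, had 744 per kb. The lowest were *cas* at 9.36 per kb and *br* at 15.2 per kb, and *br* was 0.970 times *slbo* per kb of joined exons. Before division by length the 2 were not alike, with a mean of 307 for *br* and 43.6 for *slbo*.

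*slbo* (FBgn0005638), on the minus strand of 2R at 24331522 to 24334307, was the lowest of the 10 genes. It encodes the C/EBP transcription factor that border cells need in order to migrate. Its mean was 43.6 on 2786 bp in a single exon, which put it at percentile 29.7 of genes. *Stat92E*, which acts upstream of it, was 89.5 times as high per kb. Without division by length, the highest member, here *N*, was 193.5 times *slbo*. Of 22 further genes of border cell specification and migration, 17 were above the gene median and 3 above percentile 75, with a list median of 839 per kb. They ran from *ab*, a transcription factor, at 14.5 per kb, below *slbo*, to *arm*, the fly β-catenin, at 7555 per kb. *shg*, the E-cadherin that border cells use for traction, had 805 per kb. Most of these genes serve many cell types of the ovary, and their levels are not those of border cells.

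*eya* and *Fas3* distinguish cell types within the epithelium. *eya* (FBgn0000320), on the minus strand of 2L at 6527447 to 6546976, encodes a nuclear phosphatase and coactivator that is kept out of polar cells and represses their fate elsewhere. It had a mean of 2090 on 3690 bp of exon and 566 per kb, which was 3.06 times *tj*. *Fas3* (FBgn0000636), on the plus strand of 2L at 18320102 to 18393441, encodes an immunoglobulin-domain adhesion protein that lines young follicle cells and persists in polar cells. It had a mean of 2753 on 6612 bp of exon and 416 per kb. *Fas3* over *eya* was 0.735 with all exons joined, but 1.07 on the longest transcript and 1.75 on the longest coding sequence. *Fas2*, a related adhesion gene of follicle cells, had 312 per kb, and *Fas3* was 1.34 times as high.

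**Figure D3:**
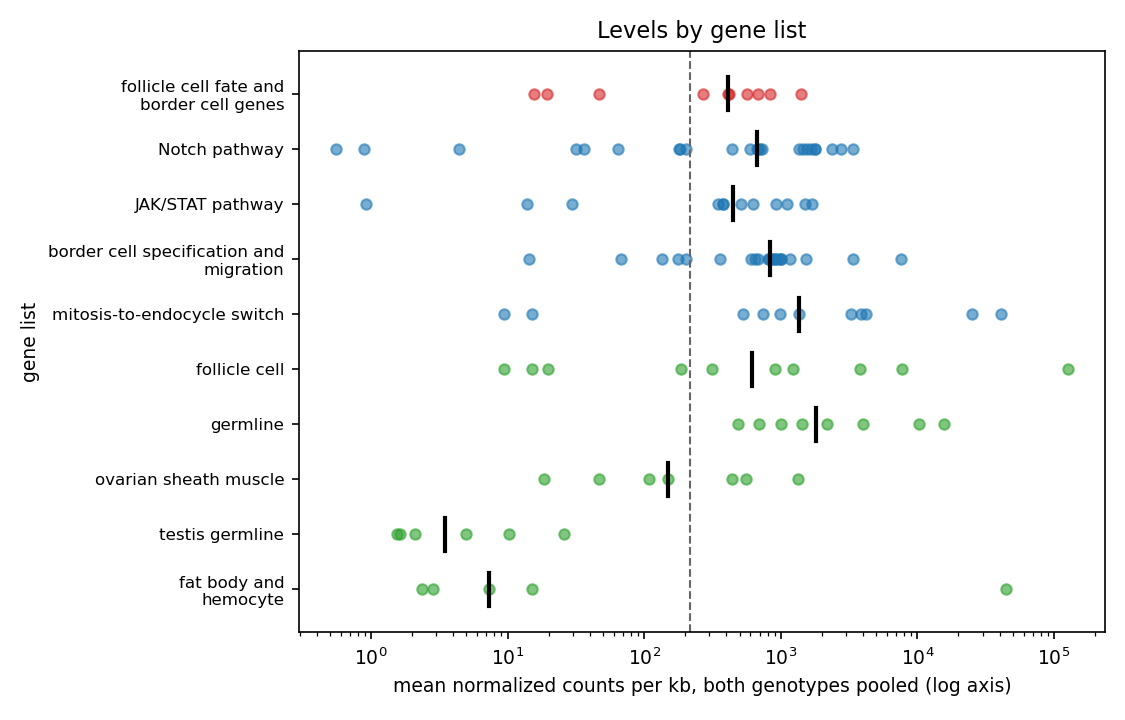
Mean normalized counts per kb (log axis) of each gene, by list, pooled over *D1* mutant and control ovaries. Points are genes, with members in red, pathway lists in blue and cell type markers in green, black bars are list medians and the dashed line is the median of all genes, 216 per kb. The members have a median of 413 per kb, and the testis genes one of 3.51 per kb.

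As a group, the members had a median of 413 per kb, between those of all genes at 216 and of the Notch list at 672. The JAK/STAT list was close to the members at 445 per kb. The marker lists had medians of 613 per kb for follicle cells, 1803 for the germline, 148 for sheath muscle and 7.32 for fat body and hemocytes. The last list held *Yp1*, a yolk protein gene that follicle cells also transcribe, at 44191 per kb, while its lowest gene, *Fbp1*, had 2.35 per kb. Muscle genes were not far from several members per kb of joined exons. *Mhc* was at 1.05 times *Fas3* and 1.07 times *Dl*, and *up*, which encodes troponin T, was at 0.988 times *eya*. *Tm2*, a tropomyosin, was at 0.998 times *ct*, though its mean before division by length was 122 against 582 for *ct*. *sls*, the lowest sheath muscle gene at 18.4 per kb, was 0.943 times *upd1*. The parts of germline RNA and of muscle RNA in the members' levels were not tested.

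With a pooled mean there is no pattern over samples to match, so the genes nearest to each member were found by level alone, among the listed genes. *Stat92E* lay next to *orb*, a germline RNA-binding protein gene, with *orb* at 1.01 times its level. *N* lay next to *par-1*, a polarity kinase gene, at 0.990 times, and *Krn*, which encodes an EGFR ligand, at 1.03 times. *ttk* lay next to *dx*, a Notch regulator, at 0.998 times, and *baz*, the fly Par3, at 1.01 times. *eya* lay near *numb*, a Notch inhibitor, at 1.06 times. *E(spl)m3-HLH* was 1.06 times *Fas3* and 1.08 times *Dl*. *Fas2* was 1.15 times and *Socs36E* 1.27 times *peb*. *E(spl)m7-HLH* was 0.779 times *ct*, *mirr* was 1.01 times *upd1*, and *Hml*, a hemocyte gene, was 0.969 times *slbo*. These are likenesses in amount per kb of joined exons only. The nearest genes were not sought with other lengths.

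The gene models bear on how far a count per gene can be read. None of the 10 genes shared an exon base with another annotated gene on either strand, so that counts taken with or without strand would not mix them with an overlapping exon. Introns of *Fas3* hold *CG34171* on the same strand, with a mean of 9.41, and *Acp36DE* on the other strand, with a mean of 12.7, which are 0.342% and 0.461% of the mean of *Fas3*. An intron of *Stat92E* holds an INE-1 transposon insertion with a mean of 7.11, or 0.0974% of that of *Stat92E*. *Stat92E* has 11 annotated transcripts with 7 coding forms, *Fas3* has 7 with 5, and *eya* and *ct* have 3 with 3 each, while *N*, *Dl*, *peb*, *upd1* and *slbo* each have a single coding form. Sequence outside the coding parts made from 20.1% of exon bases in *N* to 61.3% in *Fas3*.

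**Figure D4:**
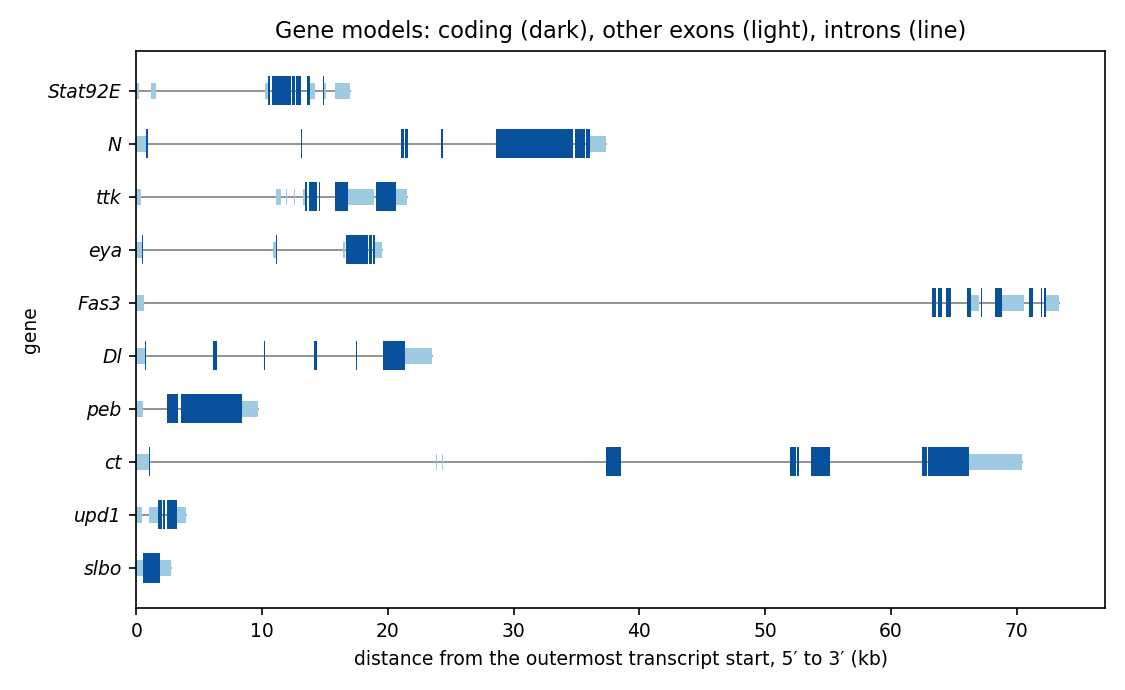
Annotated exons of the 10 genes on release 6, drawn to scale from the outermost transcript start (distance in kb, 5′ to 3′). Dark tall blocks are coding sequence, light blocks other exon sequence and lines introns. *slbo* is a single exon of 2786 bp, whereas exons fill 9.02% of the span of *Fas3* and 17.7% of that of *ct*.

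By position, *N*, *peb*, *ct* and *upd1* lie on the X chromosome, *Dl*, *Stat92E* and *ttk* on 3R, *eya* and *Fas3* on 2L, and *slbo* on 2R. *D1* lies on 3R as well, at 9238083 to 9240654. The distance from *D1* is 10065 kb for *Dl*, 11297 kb for *Stat92E* and 22476 kb for *ttk*. The third chromosomes of *D1* mutant and control females differ, since the mutants carry the deficiency and the controls the balancer. *Dl*, *Stat92E* and *ttk* lie on that chromosome. For every member, on any chromosome, an effect of *D1* loss and one of the deficiency or balancer could not be told apart by genotype alone.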

How the data were processed

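RNA-seq was carried out on 3 *D1* mutant and 3 control ovary libraries. The authors used BBTools for read cleaning, STAR for alignment to the BDGP6.32 assembly, TEtranscripts for counting on genes and transposons, and DESeq2 1.37.4 for normalization. The strand setting of the counting is not given in the sources used here. The signal used here is the mean normalized count over all 6 libraries, as deposited by the authors, and the depth of each library is unknown. The table's other columns hold the authors' comparison of *D1* mutant over control ovaries (log2 fold change, its standard error, Wald statistic, p-value, adjusted p-value and marks of raised and lowered features), and none was used. The planned test on counts was left out because the table holds no value per library.

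Of 18049 entries, 9 without a name and 1 repeated identifier were left out, and 14241 of 14303 genes had a position. Means were divided by the kb of joined exons in the Ensembl release 115 annotation of the same assembly release. RefSeq gave all 10 members the same coordinates. Percentiles are among the 14241 genes. Calculations used Python 3.11.15, pandas 2.3.3 and numpy 2.4.6. Of the steps, the joining of exons, the percentiles and the motif search were checked on simulated data. Of 108 listed genes 105 were matched, and *dec-1*, *comr* and *He* were not analysed here. The members, lists and motifs were chosen with earlier results of these data known. The genes named are all members, direct partners of members, the highest and lowest of each list, the 2 listed genes nearest each member in level and genes inside a member; a few more pathway genes were named after their values were seen. Alternatives were other gene lengths, other background genes and a search of every transcript start, the last added after seeing the data.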

Additional observations from a re-analysis of the deposited data

How the results depend on the processing

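No paired analysis was possible because the table holds a mean over all libraries, so leaving out replicates, the replicate block, another normalization and a count filter were not run. *Dl* over *N* was 0.493 with joined exons and with the longest transcript, 0.832 with the longest coding sequence and 0.256 without length. *Stat92E* over *upd1* was 71.9, against 75.4, 60.5 and 119.8 in the same order of lengths, and the highest member over the lowest was 89.5, against 111, 91.9 and 193.5. *Stat92E* was the 1 member above percentile 75 of genes, and 0 members were there among genes with a mean of at least 10 or among protein-coding genes. The former background leaves out genes of low mean, and the latter leaves out genes by type and not by level. Over these backgrounds and lengths, percentiles ran from 69.1 to 80.9 for *Stat92E* and from 8.82 to 29.7 for *slbo*, and were widest for *upd1*, from 10.7 to 32.9. No gene had a mean of 0, so keeping such genes changed nothing. Exon sharing stayed at 0 members on the same strand. Differences between *D1* mutant and control ovaries, and the error of each level, are not known from these means.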
